A study of Mus musculus with 9 samples.

Results

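The genes examined here were 10 that mark the macrophages of the pancreatic islet and the complement protein they secrete: *C1qa*, *C1qb*, *C1qc*, *Csf1r*, *Cx3cr1*, *Cd14*, *Cd68*, *Tyrobp*, *Fcer1g* and *Ptprc*. They were taken by name, as every probe set that the platform annotation pairs with 1 of these symbols alone, which gave 16 of 34945 such probe sets and 10 of 18193 genes. The RNA came from islets of male mice aged 8 weeks and was hybridised to 9 Affymetrix mouse arrays. The 4 KO (βRapKO) arrays held islets of mice with both *Raptor* alleles floxed and a Cre transgene driven by the rat insulin promoter, which removes *Raptor* (gene symbol *Rptor*), the scaffold of the kinase complex mTORC1, from insulin-producing cells. The 5 WT arrays held islets of littermates that carried the same floxed alleles without Cre, so that the Cre transgene and the deletion cannot be told apart. The sample labels give C57BL/6 as the strain, although the Cre line, unlike the floxed line on C57BL/6J, was of mixed background. Each array carried RNA pooled from 5 animals of 1 genotype, so the spread between arrays is a spread between pools and the number of arrays limits the precision. By its promoter the Cre acts in beta cells, and the macrophages of KO islets would keep their own *Raptor*.

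Islets hold a resident population of macrophages that lie along the capillaries and take up material from beta cells. These cells depend on CSF1R, the receptor for the growth factors CSF1 and IL-34, and they are recognised by surface receptors, phagocytic proteins and the signalling adaptors TYROBP and FCER1G. C1q, which tissue macrophages produce in large amounts, is built from the A, B and C chains in equal number. In complex with the proteases C1r and C1s it starts the classical complement pathway.

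The 3 chain genes lie side by side on mouse chromosome 4, in the order *C1qb* (chr4:136880126-136886200), *C1qc* (chr4:136889801-136892936) and *C1qa* (chr4:136895916-136898844) in GRCm38.p6. Together they span 18719 bases, in which RefSeq places no other gene. Promoters of 6 of the 10 genes were in the RefSeq promoter table, which gives the 250 bases before and 50 bases after each transcription start. The promoters of *C1qb* (chr4:136886151-136886450, minus strand) and *C1qc* (chr4:136892865-136893164, minus strand) are shown because these neighbours code for chains of 1 protein. Capitals mark the letters GAGGAA, the purine-rich core bound by PU.1, the transcription factor of the macrophage lineage. These letters alone were searched, on both strands.
C1qb: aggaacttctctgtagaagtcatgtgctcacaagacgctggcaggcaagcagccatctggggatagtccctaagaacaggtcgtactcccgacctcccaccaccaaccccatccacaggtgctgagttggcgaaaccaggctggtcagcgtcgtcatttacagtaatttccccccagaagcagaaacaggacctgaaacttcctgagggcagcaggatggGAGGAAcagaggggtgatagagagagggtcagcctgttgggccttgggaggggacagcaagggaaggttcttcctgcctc
C1qc: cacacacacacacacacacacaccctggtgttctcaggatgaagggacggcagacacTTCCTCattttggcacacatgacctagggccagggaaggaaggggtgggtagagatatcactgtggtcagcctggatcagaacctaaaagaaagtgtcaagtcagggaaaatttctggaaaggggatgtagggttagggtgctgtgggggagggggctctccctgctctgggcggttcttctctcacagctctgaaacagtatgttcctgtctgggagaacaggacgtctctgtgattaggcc
Each promoter held 1 match, on the strand shown for *C1qb* and on the opposite strand for *C1qc*, whose shown strand therefore reads TTCCTC. Of all 32851 promoters in the table, 28.3% held these letters, so the match sets neither promoter apart. *C1qa* was not in the promoter table.

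Across the 10 genes, *C1qa* alone passed the test in KO islets. Of the 10, 8 were higher and 2 lower in KO than in WT islets, with a median log2 difference (KO minus WT) of 0.14 beside 0.04 for all genes tested. All 10 were bright enough to be tested, and 1 of 10 passed limma's test after Benjamini-Hochberg adjustment over 13644 genes (adjusted p under 0.05), whereas 6.3% of all genes did. An unadjusted p under 0.05 was reached by 2 of the 10. The KO and WT arrays did not overlap for 1 of the 10, against 12.5% of all genes. The share of these genes that changed thus lay near the share of all genes. By the methods' t-test with the same adjustment 0 of the 10 passed. At the study's own thresholds, an unadjusted p under 0.05 together with a fold change over 1.5, 0 of the 10 passed as well, since *C1qa*, the 1 gene with such a p, changed 1.36-fold. At the level of single probe sets, 14 of the 16 were tested and 0 passed, against 2.29% of all probe sets, and 2 had an unadjusted p under 0.05. Of the 860 genes that passed in all, 501 were higher and 359 lower in KO islets, a split of 214 to 260 once the arrays were centred on their medians. In whole islets a change in the number of macrophages, in the RNA per macrophage and in the share of other cells cannot be told apart. The paper reports a lower beta cell mass and smaller beta cells in KO mice of this age. It also reports raised blood glucose in these mice, both random-fed and after a short fast. After an overnight fast, it found no significant difference from WT at this age.

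*C1qa*, the gene of the A chain, rose in KO islets. Its log2 signal was 11.37, 11.19, 11.33, 11.27 and 10.92 in WT arrays 1 to 5 and 11.72, 11.62, 11.78 and 11.53 in KO arrays 1 to 4. Every KO array lay above every WT array. WT islets averaged 11.22 ± 0.18 (SD over 5 arrays) and KO islets 11.66 ± 0.11 (SD over 4 arrays). The log2 difference was thus 0.45, with an SE of 0.11 and a 95% interval of 0.20 to 0.70, and the adjusted p of limma was 0.0491. This call stood at the threshold. The difference was positive in all 17 alternative settings, but it passed in 1 of them (quantile normalization, limma adjusted p = 0.0496), and the adjusted p over the 17 ran from 0.0496 to 0.248. Leaving out any of the 9 arrays ended the call, with log2 differences of 0.37 to 0.49.

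The other chains of the same protein did not pass. *C1qb*, the B chain, measured 8.89, 9.25, 8.91, 8.67 and 8.73 in WT and 9.12, 9.06, 9.25 and 8.44 in KO arrays. The groups overlapped throughout, and KO array 4 was the lowest of all 9. The log2 difference was 0.08 ± 0.18 (SE), with a 95% interval of -0.34 to 0.49 (limma adjusted p = 0.861). The other *C1qb* probe sets, whose identifiers end in x_at and so may also bind related transcripts, differed by 0.02 and 0.33. In the latter, KO array 1 stood out at 9.65 while KO array 2, at 8.58, lay among the WT arrays (8.51 to 8.93).

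*C1qc*, the C chain, measured 7.59, 8.12, 8.35, 8.27 and 8.29 in WT and 8.47, 8.11, 8.47 and 7.82 in KO arrays. WT array 1 was the lowest, and the remaining arrays of both groups were mixed. Its log2 difference was 0.10 ± 0.20 (SE), with a 95% interval of -0.35 to 0.54 (limma adjusted p = 0.836). For *C1qb* and *C1qc* the intervals reach beyond the difference measured for *C1qa*, so a rise of that size in all 3 chains was not told apart from a rise in *C1qa* alone. As a description, *C1qa* minus the mean of *C1qb* and *C1qc* on the log2 scale was 3.13, 2.51, 2.69, 2.80 and 2.41 in WT and 2.93, 3.03, 2.92 and 3.40 in KO arrays. The KO mean was 0.36 higher, but WT array 1 lay above 3 of the 4 KO arrays, and no test was made of this ratio.

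**Figure D1:**
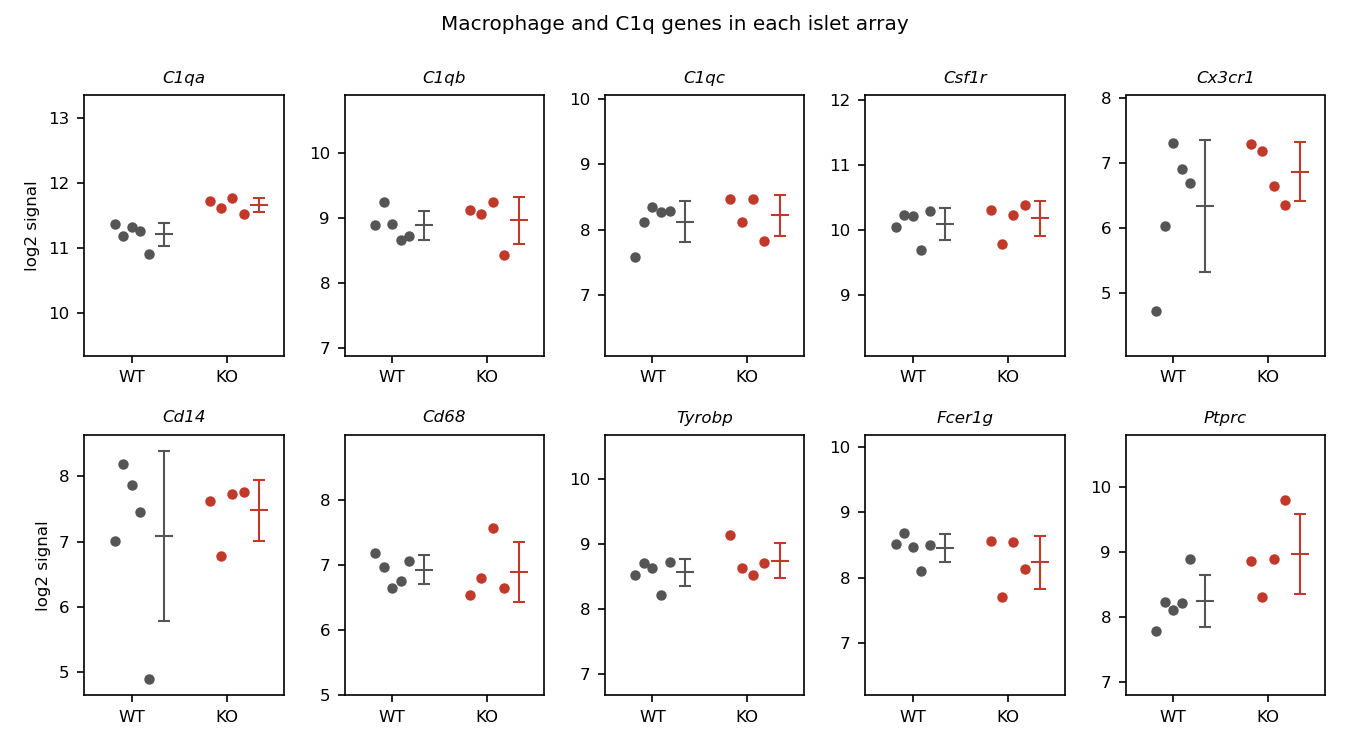
Log2 signal (y axis) of the 10 macrophage and C1q genes in the 5 WT (grey) and 4 KO (red) islet arrays, 1 panel per gene, each spanning the same number of log2 units. Each point is 1 array, and the bar beside the points is the mean ± SD of the group. Only the panel of *C1qa* shows the 2 groups apart, at 10.92 to 11.37 in WT and 11.53 to 11.78 in KO islets.

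C1q acts with partners, and 2 of these rose in KO islets. Of 19 listed genes of the classical pathway and of C1q binding, 11 were tested, 2 rose, 0 fell and 9 did not pass, with a median log2 difference of 0.26. *C1s1*, the protease that C1q carries, measured 7.82, 8.03, 8.28, 8.41 and 8.71 in WT and 9.75, 9.31, 9.15 and 9.30 in KO arrays. All KO arrays were higher than all WT arrays. The difference was 1.13 ± 0.19 (SE) or 2.19-fold (limma adjusted p = 0.0121). Its probe set identifier ends in s_at, and the near-identical gene *C1s2* may contribute to the signal. *Serping1*, the inhibitor that removes C1r and C1s from C1q, measured 10.94, 10.66, 11.36, 10.90 and 11.18 in WT and 12.03, 11.71, 11.87 and 11.87 in KO arrays. Again the groups did not overlap. The difference was 0.86 ± 0.15 (SE) or 1.82-fold (limma adjusted p = 0.0114).

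Both calls held in 15 of the 17 alternatives, including all 9 in which an array was left out. *C1ra*, the other C1 protease, was 0.87 ± 0.35 (SE) higher in KO islets without passing (limma adjusted p = 0.184), and in WT array 5 it reached 8.03, above every KO array. *Lrp1*, a receptor that takes up C1q-coated cells, differed by 0.64 ± 0.19 (SE, limma adjusted p = 0.0810). *C2* (-0.06), which C1s cleaves, *C3ar1* (-0.28), the receptor of a cleaved complement fragment, and *Calr* (-0.15) and *C1qbp* (0.22), which bind C1q, did not pass either. *C3*, *C4a* and *C4b* were not analysed here.

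*C1s1* and *Serping1* are transcribed by fibroblasts as well as by other cells, and stromal markers differed between the same groups. Of 16 stromal markers, all were tested, 9 rose and 0 fell, with a median log2 difference of 1.26, while 6.3% of all genes passed. By the methods' t-test with the same adjustment, 6 of the 16 passed. Examples are *Dcn* (2.04 ± 0.38, SE, limma adjusted p = 0.0173), *Postn* (1.68 ± 0.29, SE, limma adjusted p = 0.0116), *Lum* and *Sparc*, which code for matrix proteins. Averaged over its probe sets, *Dcn* differed by 0.66 (limma adjusted p = 0.567) and *Sparc* by 0.40 (limma adjusted p = 0.169). Without KO array 1 both missed the threshold, *Dcn* at 1.89 (limma adjusted p = 0.0596) and *Sparc* at 0.73 (limma adjusted p = 0.0562). The mean of the 16 lay between 8.43 and 9.39 in WT and between 9.69 and 10.25 in KO arrays, with no overlap. With that mean as a covariate, the difference of *C1qa* was 0.71 (limma adjusted p = 0.248), and those of *C1s1* (0.30, limma adjusted p = 0.650) and *Serping1* (0.29, limma adjusted p = 0.590) kept their sign without passing. Only 5 of the 13644 genes passed in that fit, in which the range of the covariate did not overlap between the groups. Genotype and the stromal mean can therefore not be told apart. Which cells carried the *C1s1* and *Serping1* signals was not tested.

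**Figure D2:**
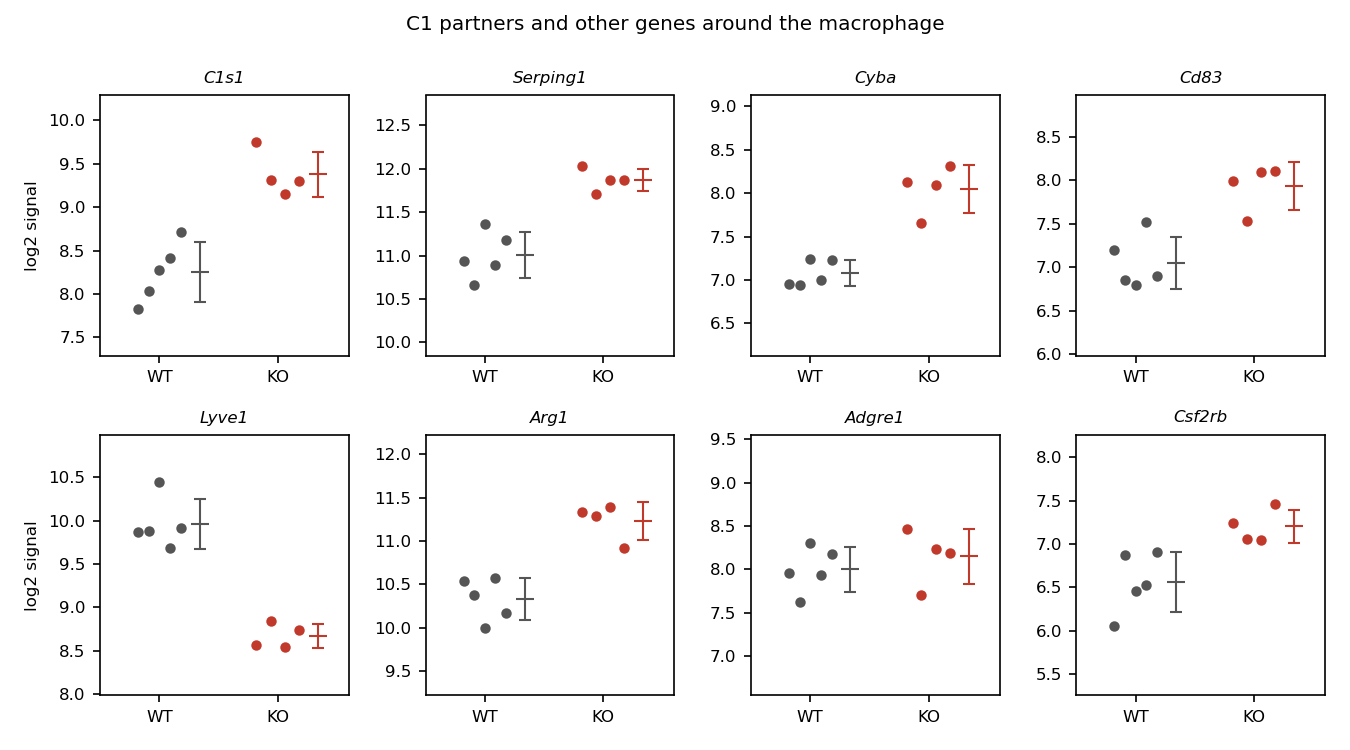
Log2 signal (y axis) of 8 genes that work with C1q or mark macrophages, in 5 WT (grey) and 4 KO (red) islet arrays, with the mean ± SD of each group beside the points. *C1s1*, *Serping1*, *Cyba*, *Cd83* and *Arg1* were higher in every KO array and *Lyve1* was lower in every KO array, while *Adgre1* overlapped and *Csf2rb* stood apart without passing the test.

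Among the receptor genes of the 10, *Csf1r*, *Cx3cr1* and *Cd14*, the KO and WT arrays overlapped and 0 passed. *Csf1r* measured 10.04, 10.22, 10.21, 9.69 and 10.29 in WT and 10.30, 9.79, 10.23 and 10.38 in KO arrays. The groups covered the same range. The difference was 0.09 ± 0.16 (SE), with a 95% interval of -0.28 to 0.46 (limma adjusted p = 0.822), which corresponds to bounds well under a doubling in either direction. Its other probe sets differed by -0.11 and 0.01. Of 14 listed ligands of CSF1R and transcription factors of the myeloid lineage, 11 were tested and 0 passed, with a median of 0.08. An unadjusted p under 0.05 was reached by 3 of them. *Csf1* (-0.17) and *Il34* (0.52), the ligands, and *Spi1* (-0.31), which codes for PU.1, were among those that did not pass. *Csf2rb*, the shared beta chain of the GM-CSF and IL-3 receptors, came nearest, at 6.05 to 6.91 in WT and 7.05 to 7.46 in KO arrays (difference 0.64 ± 0.18, SE, limma adjusted p = 0.0783), whereas *Csf2ra*, the alpha chain that binds GM-CSF, was 0.36 lower (limma adjusted p = 0.169).

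*Cx3cr1*, the receptor of the membrane-bound chemokine fractalkine, varied widely. It measured 4.72, 6.03, 7.31, 6.90 and 6.69 in WT and 7.29, 7.18, 6.64 and 6.35 in KO arrays. WT array 1 lay far below the rest and the other arrays of the 2 groups overlapped. The difference was 0.53 ± 0.49 (SE), with a 95% interval of -0.57 to 1.64 (limma adjusted p = 0.587). Its dimmer probe set, at 1.27 to 5.51 in WT and 2.19 to 5.47 in KO arrays, was too dim to be tested. *Cx3cl1*, which codes for fractalkine, differed by 0.09, and its shedding proteases *Adam10* and *Adam17* by -0.08 and 0.18. Of 14 genes of fractalkine and of chemokines that attract monocytes, 9 were tested and 0 passed (median 0.39), with an unadjusted p under 0.05 in 1, *Ccr2*, the receptor that brings monocytes from the blood (4.28 to 6.62 in WT and 6.58 to 7.22 in KO arrays, limma adjusted p = 0.194). Its probe sets disagreed: the other ones that could be tested differed by 1.16 and -1.12, the average over all probe sets differed by 0.017, and the difference was 0.64 without WT array 3. The mean of the 9 tested genes lay between 6.96 and 7.45 in WT and between 7.63 and 7.89 in KO arrays, with no overlap. This mean takes in dim values, such as *Cxcl10* at 2.74 in WT array 2. Likewise, *Ccr1* was at 3.07 in WT array 1 and 5.62 in KO array 2. The dimness of *Ccl2*, *Ccl3*, *Ccl7* and *Ccl12* kept these chemokines out of the test.

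*Cd14*, the co-receptor that presents bacterial lipopolysaccharide to TLR4, measured 7.01, 8.18, 7.87, 7.46 and 4.89 in WT and 7.63, 6.78, 7.74 and 7.77 in KO arrays. WT array 5 was the lowest and WT array 2 the highest. The difference was 0.40 ± 0.61 (SE), with a 95% interval of -0.99 to 1.78 (limma adjusted p = 0.772), and it turned to -0.15 without WT array 5. Of 15 genes of the CD14 and toll-like receptor pathway, 9 were tested and 0 passed (median 0.08), with an unadjusted p under 0.05 in 2. *Ly96* (-0.01), the TLR4 partner, *Tlr2* (-0.02) and the adaptor *Myd88* (0.08) had small differences, and *Cd36*, a scavenger receptor that endothelial and fat cells also carry, came nearest at 0.87 ± 0.22 (SE, limma adjusted p = 0.0536). Its other tested probe set differed by 0.29, and the average of its probe sets by 0.32 (limma adjusted p = 0.675).

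*Cd68*, a lysosomal glycoprotein of phagocytes, measured 7.18, 6.97, 6.63, 6.75 and 7.06 in WT and 6.54, 6.80, 7.56 and 6.65 in KO arrays. KO arrays held both the lowest and the highest value. The difference was -0.03 ± 0.22 (SE), with a 95% interval of -0.52 to 0.45 (limma adjusted p = 0.950).

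**Figure D3:**
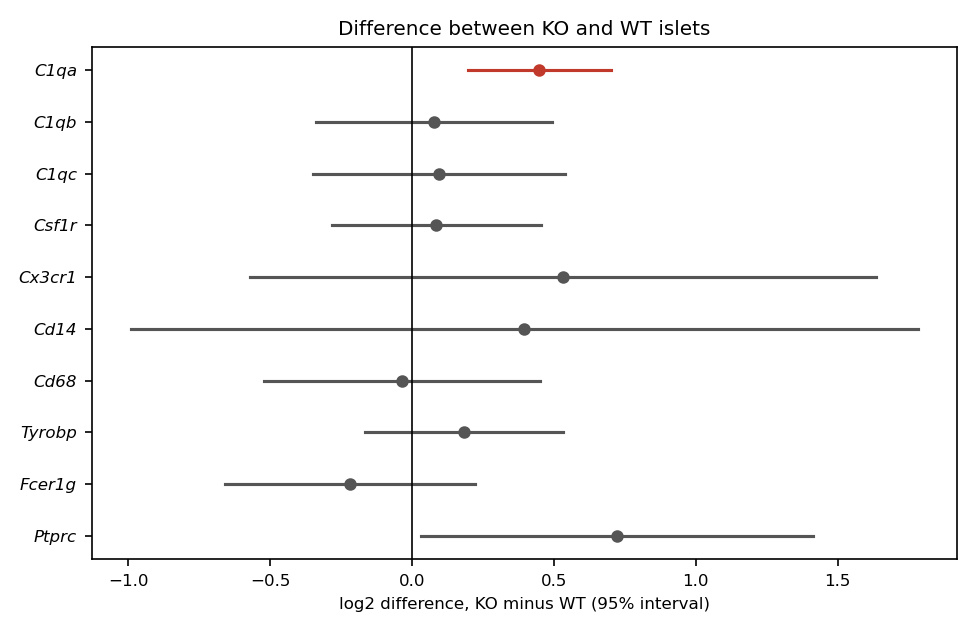
Log2 difference between KO and WT islets (x axis, KO minus WT) for the 10 macrophage and C1q genes (y axis), each with its 95% interval from limma before adjustment. The interval excludes 0 for *C1qa* (red, adjusted p under 0.05) and for *Ptprc*, which did not pass after adjustment, and it is widest for *Cd14* (-0.99 to 1.78).

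TYROBP and FCER1G are short adaptor proteins that carry the signal of receptors without a signalling domain of their own. *Tyrobp* measured 8.53, 8.71, 8.63, 8.22 and 8.73 in WT and 9.13, 8.62, 8.52 and 8.71 in KO arrays. KO array 1 was the highest and the other 3 KO arrays lay within the WT range. The difference was 0.18 ± 0.15 (SE), with a 95% interval of -0.17 to 0.53 (limma adjusted p = 0.548). *Fcer1g* measured 8.52, 8.68, 8.46, 8.11 and 8.50 in WT and 8.56, 7.70, 8.55 and 8.13 in KO arrays. KO array 2 was the lowest and the other KO arrays lay within the WT range. The difference was -0.22 ± 0.20 (SE), with a 95% interval of -0.66 to 0.22 (limma adjusted p = 0.576). Of 25 listed receptors that use such adaptors and kinases that act with them, 15 were tested and 0 passed (median 0.17), and 2 had an unadjusted p under 0.05, *Trem3* (0.79, limma adjusted p = 0.193) and the beta-glucan receptor *Clec7a* (0.62, limma adjusted p = 0.195). The Fc receptors *Fcgr1* (0.18), *Fcgr2b* (-0.03), *Fcgr3* (0.16) and *Fcgr4* (0.18) did not pass, and *Trem2* was too dim to be tested. The mean of the 15 tested genes lay between 6.20 and 6.70 in WT and between 6.78 and 6.97 in KO arrays, with no overlap. This mean takes in dim values, such as *Hcst* at 2.34 in WT array 4 and *Btk* at 3.72 in KO array 2.

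*Ptprc*, which codes for CD45, the phosphatase on all leukocytes, had the second smallest p of the 10 genes. It measured 7.79, 8.24, 8.10, 8.21 and 8.88 in WT and 8.86, 8.31, 8.89 and 9.80 in KO arrays. KO array 4 was the highest by a wide margin, while WT array 5 lay above KO array 1. The difference was 0.72 ± 0.31 (SE), with a 95% interval of 0.03 to 1.41, and did not pass (limma adjusted p = 0.210). Without KO array 4 it was 0.44. A dimmer probe set, at 0.64 to 6.28 in WT and 2.78 to 5.66 in KO arrays, was not tested.

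The same KO array 4 stood apart in the mean of the B cell markers. The mean of the 5 tested of 7 B cell markers was 8.36 in KO array 4 and 6.53 to 7.08 in the other 8 arrays, with 0 passing the test, also at an unadjusted p under 0.05, and a median of 0.07. *Ms4a1*, the B cell protein CD20, was 9.22 in KO array 4 and 5.48 to 6.94 elsewhere. *Cd79b* (8.21) and *Cd22* (8.66) were also highest in KO array 4. *Cd79a* (7.47) and *Ighm* (8.25) were not, and WT array 3 lay above KO array 4 for both. The part of B cells in the *Ptprc* value was not tested. In T cells 4 of 12 markers were tested and 0 passed (median -0.41), with an unadjusted p under 0.05 in 1, *Cd5*, and the T cell receptor genes *Cd3d*, *Cd3e* and *Cd3g* were too dim to be tested. Of the markers of natural killer cells (2 of 6 tested), neutrophils (5 of 10) and mast cells (2 of 8), 0 passed. An unadjusted p under 0.05 was reached by 1, *Kit* of the mast cell list (1.02). The other mast cell gene tested, *Hdc*, differed by -0.69, and *Cpa3*, *Mcpt4* and *Cma1* were too dim to be tested. In every list of which 0 genes passed limma, 0 passed the methods' t-test after adjustment as well. In dendritic cells 1 of 2 tested genes rose, the transcription factor *Zbtb46* (0.67 ± 0.17, SE, limma adjusted p = 0.0469), which endothelial cells also express, and this call held in 2 of the 17 alternatives.

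Beyond the 10 genes, 40 further macrophage markers were listed, of which 31 were tested, 2 rose, 1 fell and 28 did not pass, with 21 higher and 10 lower in KO islets and a median of 0.15. The defining marker *Adgre1* measured 7.63 to 8.30 in WT and 7.71 to 8.47 in KO arrays (difference 0.15 ± 0.18, SE, limma adjusted p = 0.702). *Ctss* (-0.07), a lysosomal protease, *Mrc1* (0.07), the mannose receptor, and the antigen presentation genes *Cd74* (0.10), *H2-Aa* (-0.12) and *H2-Eb1* (0.15) also did not pass. An unadjusted p under 0.05 was reached by 7 of the 31, among them 4 that did not pass after adjustment: *Ncf4* (1.18, limma adjusted p = 0.0585), a subunit of the phagocyte oxidase, *Lyz1*, *Cd53* (0.61, limma adjusted p = 0.199) and *Ly86* (0.34, limma adjusted p = 0.222). The mean of the 31 lay between 7.98 and 8.23 in WT and between 8.02 and 8.49 in KO arrays, and that of the 10 genes above between 8.16 and 8.58 in WT and between 8.40 and 8.76 in KO arrays. These 2 means overlapped between the groups. Those of the adaptor-coupled receptors and of the chemoattractants did not, and neither did those of the stromal, endothelial, ductal and beta cell markers. Among single genes, 12.5% of all those tested did not overlap, but no such share was worked out for means over several genes.

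*Lyve1*, a hyaluronan receptor of a subset of perivascular macrophages and of lymphatic endothelium, fell in KO islets. It measured 9.86, 9.88, 10.44, 9.68 and 9.92 in WT and 8.56, 8.84, 8.54 and 8.73 in KO arrays, with every KO array below every WT array. The difference was -1.29 ± 0.15 (SE), so the WT signal was 2.44-fold that of KO islets (limma adjusted p = 0.00282), and a second probe set differed by -1.53. Among the other perivascular markers, *Stab1* differed by -0.07 without passing and *Folr2*, *Timd4* and *Cd163* were too dim to be tested. The 2 markers that rose were *Cyba* (6.94 to 7.24 in WT and 7.66 to 8.31 in KO arrays, 1.96-fold, limma adjusted p = 0.00664), a subunit of the phagocyte oxidase that many other cells express, and *Cd83* (1.84-fold, limma adjusted p = 0.0274), a surface protein of activated antigen-presenting cells. The calls of *Lyve1* and *Cyba* held in 15 of the 17 alternatives and that of *Cd83* in 5. The lysozyme genes *Lyz1* (1.27, limma adjusted p = 0.107) and *Lyz2* (0.82, limma adjusted p = 0.236), near-identical copies that may share signal, were highest in KO arrays 1 and 3 and did not pass.

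Genes listed as products of activated macrophages differed in both directions in whole islets. Of 20 listed, 11 were tested, 1 rose, 1 fell and 9 did not pass, with a median of -0.13. An unadjusted p under 0.05 was reached by 5 of the 11, among them *Il1rn* (-0.53, limma adjusted p = 0.167), which did not pass. *Arg1*, an arginase listed for its place in alternatively activated macrophages, measured 10.54, 10.38, 10.00, 10.57 and 10.17 in WT and 11.33, 11.29, 11.39 and 10.91 in KO arrays. Which cells of the islet carried this signal was not tested. The groups did not overlap. The difference was 0.90 ± 0.15 (SE, 1.86-fold, limma adjusted p = 0.0116) and held in 15 of the 17 alternatives. *Vegfa*, an angiogenic factor that beta cells also secrete, fell by 0.49 on the log2 scale (limma adjusted p = 0.0396), and 3 of the 17 alternatives kept that call. The cytokine *Il1b* (-0.24) and the growth factors *Igf1* (1.68, limma adjusted p = 0.0686) and *Pdgfb* (0.52, limma adjusted p = 0.0898) did not pass, although the KO arrays lay above all WT arrays for both growth factors. *Nos2*, *Tnf*, *Il6*, *Chil3* and *Retnla*, which separate inflammatory from alternative activation, were too dim to be tested.

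Other cell types of the preparation set the frame for these values. *Rptor*, the deleted gene, measured 9.22 to 9.71 in WT and 8.48 to 9.21 in KO arrays (limma adjusted p = 0.0410), and 5 of the 17 alternatives kept that call (-0.16 with averaged probe sets). Of 8 beta cell markers tested, 5 fell, and their mean was 13.84 to 14.02 in WT and 13.23 to 13.42 in KO arrays. Among 12 endothelial markers 0 passed (median 0.35), with an unadjusted p under 0.05 in 4, and their mean was 9.52 to 9.75 in WT and 9.84 to 10.16 in KO arrays. Of 11 acinar markers tested 0 passed, none with an unadjusted p under 0.05. Their mean varied within both groups, from 9.12 to 13.13 in WT and from 8.61 to 13.24 in KO arrays, and with it as a covariate the difference of *C1qa* was 0.44 (limma adjusted p = 0.0734). Of 4 ductal markers tested 1 rose, and the 1 red blood cell marker tested did not pass. The part of these cells in the macrophage values was not tested.

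The 10 genes did not move as 1 block from array to array. Over the deviations of the 9 arrays from their group means, the 45 pairs had Pearson correlations between -0.69 and 0.81 with a median of 0.05, and 6 pairs were over 0.5 and 17 under 0. These are descriptions over 9 arrays that share pools of RNA between genes, and no p is given. Within C1q, *C1qa* and *C1qb* gave 0.44, *C1qb* and *C1qc* 0.40, and *C1qa* and *C1qc* 0.00. *Csf1r* went with *Fcer1g* (0.76), *Tyrobp* (0.67) and *Ptprc* (0.62), and *C1qc* with *Cx3cr1* (0.81), a pair in which WT array 1 was the lowest for both. *C1qa* and *Ptprc* ran in opposite directions (-0.69), with WT array 5 the lowest WT array for the former and the highest for the latter.

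**Figure D4:**
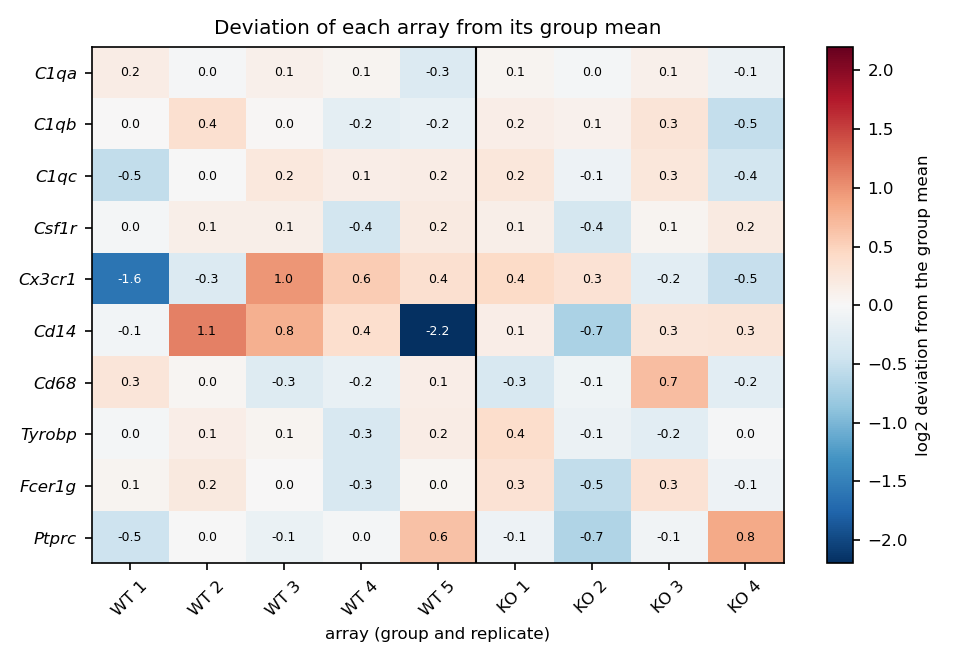
Log2 deviation of each array (x axis, 5 WT and 4 KO arrays) from the mean of its group for the 10 genes (y axis), in red above and in blue below the mean. No array was high or low across all 10 genes, and the largest deviations were those of *Cd14* in WT array 5 and *Cx3cr1* in WT array 1.

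The genes whose deviations were most like the mean deviation of the 3 C1q chains, among 9317 tested genes with a mean log2 signal of at least 8, were *Cc2d2a* (r = 0.97), *Rnf216* (0.94), *Usp37* (0.94), *Bambi* (0.94), *Ssna1* (0.93), *Jrk* (0.91), *Timm29* (0.90) and *Slc36a4* (0.90) over the 9 arrays. None of these 8 was in a macrophage list. Of the 8, 2 passed the test between KO and WT islets, *Cc2d2a* (0.47, limma adjusted p = 0.0435) and *Bambi* (0.54, limma adjusted p = 0.0160). Correlations of this height over 9 arrays were picked from all genes of that pool and are a description.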

How the data were processed

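Islet RNA of 5 WT and 4 KO pools was measured by array, and groups came from the sample titles. The authors deposited 1 log2 signal per probe set and array, and used Genespring. How probes were summarised is not given in the sources used here. On every array the trimmed mean of the linear signal (2% off each end) lay between 497.1 and 497.7, between 43 and 107 values per array sat at a floor of 0, and array medians ran from 6.85 to 7.05. Of 45037 probe sets, 34945 had 1 gene symbol, 932 several and 9160 none here. Since signals depend on the probes, levels were not compared between probe sets.

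Each gene was represented by its probe set with the highest mean, the dimmest 25% of genes was left out, and KO was compared with WT in limma 3.58.1 (lmFit, then eBayes, in R 4.3.3, two-sided and without a covariate), adjusted by Benjamini-Hochberg over 13644 genes. Over 26208 probe sets 2.29% passed, and of the 14 tested of 16 probe sets of the 10 genes 0 passed, with 2 under an unadjusted p of 0.05 and 0 passing by the t-test. Noise rose as signal fell: the median within-group SD was 0.149 for genes with a mean over 10 and 0.656 under 7. Tables were handled with pandas 2.3.3 in Python 3.11.15, and the fits were tested on simulated data.

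The genes and the 19 lists were chosen with earlier results of these data known. Named were the 10 genes, up to 4 genes past the threshold from each list (or that with the lowest p), *Rptor* and cell type checks, and the 8 genes most like C1q. Further list genes were named for their role after their values were seen. The 17 alternatives were no filter, averaged probe sets, median centring, quantile normalization, the methods' t-test, a replicate block, a stromal and an acinar covariate, and leaving out each of the 9 arrays.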

Additional observations from a re-analysis of the deposited data

Results flagged for a closer look

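Among 86 groups of arrays checked for a single array far from the rest of its group, 5 had one, and chance alone gives about 1 in 20. *Cd14* had 1 low KO array (6.78 in KO array 2, the others at 7.63 to 7.77). *Ccr2* had 1 low WT array (4.28 in WT array 3), and *Cd5*, a T cell gene, had 1 low KO array (3.03 in KO array 4). *Lum*, a stromal gene, had 1 high KO array (9.96 in KO array 1), and *Ucn3*, a beta cell gene, had 1 WT array apart from the rest (13.58 in WT array 4).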

How the results depend on the processing

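Of the 10 genes, 1 passed as reported and under quantile normalization, and 0 passed with no filter on dim genes, with averaged probe sets, with median centring, with the t-test, with the replicate block, with either covariate and without any 1 of the arrays (0 to 0). Of all genes, 860 passed as reported, 452 with no filter, 317 with averaged probe sets, 474 with median centring, 61 with the replicate block, 5 with the stromal covariate and 372 to 800 without 1 array. The cause was not tested. Deviations of arrays with the same replicate number correlated at -0.04, 0.09, 0.12 and -0.03, values that show no pairing by number. Whether such arrays shared a batch was not tested. With the block the calls of *C1s1* (1.24), *Serping1* (0.91), *Lyve1* (-1.30), *Cyba* (1.01) and *Arg1* (0.86) were lost at differences near the reported ones. With the stromal covariate they were lost at smaller differences for *C1s1* (0.30), *Serping1* (0.29) and *Cyba* (0.59) and at larger ones for *Lyve1* (-1.62) and *Arg1* (1.38).

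Among 730 values of the 43 named genes under the alternatives, 598 kept direction and side of the threshold, 100 lost the call, 6 gained it and 26 changed sign. The sign changed with the stromal covariate for *C1qc* (-0.28), *Cd68* (0.54), *Csf1r* (-0.16), *Cx3cr1* (-1.14), *Tyrobp* (-0.15), *Adgre1* (-0.44), *S100a9* (-3.09) and *Ptf1a* (-0.83). It changed with the replicate block for *Cd68* (0.00046), *Cd14* (-0.15), *Alas2* (0.045) and *Ins2* (0.011), with averaged probe sets for *Csf1r* (-0.0040) and with quantile normalization for *Gcg* (0.045). When 1 array was left out, the differences ran from -0.016 (without KO array 3) to 0.25 for *C1qb*, from -0.038 (without WT array 1) to 0.23 for *C1qc*, from -0.26 to 0.081 (without KO array 1) for *Cd68*, from -0.015 (without WT array 4) to 0.21 for *Csf1r*, from -0.15 (without WT array 5) to 0.67 for *Cd14*, from -0.61 to 0.62 (without KO array 1) for *Alas2* and from -0.14 to 0.018 (without KO array 3) for *Ins2*. None of these genes had passed the test. With 5 and 4 arrays, the intervals of the genes that did not pass leave room for differences as large as their bounds.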
